A study of Mus musculus with 6 samples.

Results

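The mammalian circadian clock was examined through 10 of its genes, Clock, Per1, Per2, Per3, Cry1, Cry2, Nr1d1, Nr1d2, Dbp and Tef, in cultured mouse tail tissue fibroblasts. They were taken by name, with every non-control array probe whose transcript accession maps to one of these symbols. This gave 19 of 56605 probes. All 10 genes were among the 23060 tested, of 45616 genes and unnamed transcripts on the array. The tested probe was well above background on all 6 arrays for 9 of them, and Per3 was the exception.

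All cells came from C57BL/6 mice of the genotype LH2F/F CAG-Cre, with floxed alleles of lysyl hydroxylase 2 (LH2, encoded by Plod2) and a Cre transgene, and the labels give LH2 cKO as the genotype of the control cells as well. CAG is a broadly active promoter, and tamoxifen is meant to switch on the Cre expressed from it. The control group received no tamoxifen in its medium. Both other groups were treated with tamoxifen for 24 h, no.1 in a medium that also contained tamoxifen and no.2 in one free of it. Each group had 2 arrays, hybridised with Cy3-labelled RNA of 1 sample each. The labels do not say whether the samples of a group came from separate mice or cultures. The p-values here therefore reflect only how far these samples spread, possibly for technical reasons. In the file names, replicate 1 of each treated group is marked 24 h and replicate 2 48 h, although the labels state 24 h. The spread within those groups may thus hold a difference in time, which was not tested. None of the groups analysed here had tamoxifen and an intact Plod2, and the sources used here give neither the time of day nor the last medium change at harvest. Tamoxifen, the deletion, time in culture and clock phase therefore cannot be told apart against control.

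The clock is a feedback loop of transcription. CLOCK pairs with BMAL1 (encoded by Arntl), binds E-boxes and switches on the Per and Cry genes, whose proteins return to the nucleus and repress CLOCK and BMAL1. A further loop runs through the nuclear receptors REV-ERB alpha and beta (Nr1d1 and Nr1d2), which repress Arntl and are themselves driven from E-boxes. DBP and TEF are PAR bZIP factors that bind D-boxes and pass the rhythm on to output genes, and Dbp is among the most strongly rhythmic transcripts of many tissues. Fibroblasts in culture have such a clock in each cell. Serum, glucocorticoids and cAMP signals reset it, in part through rapid induction of Per1. In a culture that has not been synchronised the cells run out of phase with each other, and a bulk level is an average over them.

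The binding motifs of this loop stand close to the transcription start of a few of these genes, and 1 window of each gene that holds one is shown because the loop acts through such motifs. The RefSeq promoter table (GRCm38.p6) held 13 start windows for 9 of the 10 genes, and it had no entry for Per2. A window covers 250 bases before to 50 after a start. The E-box CACGTG, which is its own reverse complement, was found in 4 of these 13 windows, those of Cry1, Per1 and both of Tef, against 7.15% of all 32851 windows. The D-box, searched as TTATGTAA or TTACGTAA on both strands, was found only in the Per3 window among the 13, where it occurred at 205 and 158 bases before the start, against 1.06% of all windows. The cAMP response element TGACGTCA and the core of the element shared by ROR and REV-ERB receptors (TAGGTCA or TGGGTCA, both strands) had no match in the 13 windows, against 1.79% and 6.45% of all windows. No match overlapped another, and a match is a description of these letters, not evidence of binding. Sequences run 5′ to 3′ on the gene's strand, and capitals mark the E-box, or the D-boxes in Per3. The Cry1 stretch lies at chr10:85185069-85185154 (minus strand), Tef at chr15:81802506-81802591 (plus), Per1 at chr11:69098743-69098828 (plus) and Per3 at chr4:151044776-151044910 (minus).
Cry1: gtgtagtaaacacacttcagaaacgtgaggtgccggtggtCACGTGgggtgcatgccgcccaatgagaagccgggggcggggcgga
Tef: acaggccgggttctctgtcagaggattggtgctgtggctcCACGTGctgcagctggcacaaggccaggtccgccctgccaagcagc
Per1: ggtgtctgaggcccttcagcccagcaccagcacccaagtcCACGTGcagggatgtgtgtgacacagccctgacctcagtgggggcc
Per3: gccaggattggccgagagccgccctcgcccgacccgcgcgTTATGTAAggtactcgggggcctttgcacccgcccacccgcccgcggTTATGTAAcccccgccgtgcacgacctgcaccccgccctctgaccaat

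The arrays differed in overall brightness between the groups, which bears on every value that follows. In processed signal, the 75th percentile over probes reached 34.2 and 33.7 on the control arrays, 95.9 and 85.1 in no.1, with 55.1 and 56.9 in no.2, and 44.2% to 53.5% of probes were well above background. A scaled level here is the log2 signal minus that percentile of the same array, so a change is relative to the other genes of the array. The control arrays lay closest to each other, with a robust SD of their difference of 0.15, against 0.42 in no.1 and 0.39 in no.2. All 6 arrays shared 1 slide and 1 scan, and the control arrays lay in another slide row than the rest, so row and treatment cannot be told apart. The targeted gene Plod2 fell 4.38-fold in no.1 (adjusted p = 0.00613) and 5.92-fold in no.2 (adjusted p = 0.00768), by limma over all genes. Whether the Plod2 probe reads the deleted stretch cannot be told from the sources used here. Of 12 fibroblast markers, 11 were well above background on all arrays, and Lum was on none. Of those 11, 2 were called higher and 5 lower in no.1 (median log2 fold change -1.28), and 1 higher and 4 lower in no.2 (-0.087). Over all tested genes, 21.4% were called higher and 26.4% lower in no.1, and 12.1% higher and 16.2% lower in no.2. Of the macrophage markers, Ptprc and Adgre1 were above background on no array while Csf1r and Cd68 were on all, and the summed scaled level of the 4 was 10.7 and 9.89 in control and between 1.76 and 4.22 on the other arrays. Lists of other cell types were mixed. Trp63 and Krt10 of the keratinocyte list, Acta1 of skeletal muscle, Col2a1 and Sox9 of cartilage, Dct and Tyr of melanocytes and Lep of adipocytes were above background on all 6 arrays, and the endothelial Pecam1 on 5, while Krt5, Krt14, Cdh1, Myod1, Myog, Cdh5, Acan, Mlana and Adipoq were on none. All 3 tested melanocyte markers were called lower in no.1 and 1 of them in no.2, against 26.4% and 16.2% of all tested genes. The summed scaled level of that list was 1.67 and 1.57 in control and between 0.507 and 0.878 on the other arrays. The part of other cell types in the results was not tested. In these bulk samples, fewer cells of a type and less RNA per cell cannot be told apart.

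Against control, the output gene Dbp and the repressor gene Cry2 fell in no.1 as well as no.2, and Clock rose in no.1, all relative to the array's 75th percentile (relative to spike-in controls, given further on, neither Dbp nor Cry2 passed). In no.1, limma called 4 of the 10 genes, with 1 higher (Clock) and 3 lower (Cry1, Cry2 and Dbp), at a Benjamini-Hochberg adjusted p under 0.05 over all genes. The background was 47.8% of all tested genes called, 21.4% higher and 26.4% lower. In no.2 it called 4 as well, all lower (Cry1, Cry2, Nr1d1 and Dbp), where 28.3% of all genes were called, 12.1% higher and 16.2% lower. The share of clock genes called was thus near that of all genes in no.1 and somewhat above it in no.2, and the number of genes is too small to read more from it. The median log2 fold change of the 10 genes was -0.35 in no.1 and -0.26 in no.2, beside -0.12 and -0.10 over all genes. Both comparisons share the control arrays, so their likeness is not independent evidence. With both control arrays averaged into 1 sample, 2 genes (Cry2 and Dbp) were called in no.1 and none in no.2.

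**Figure D1:**
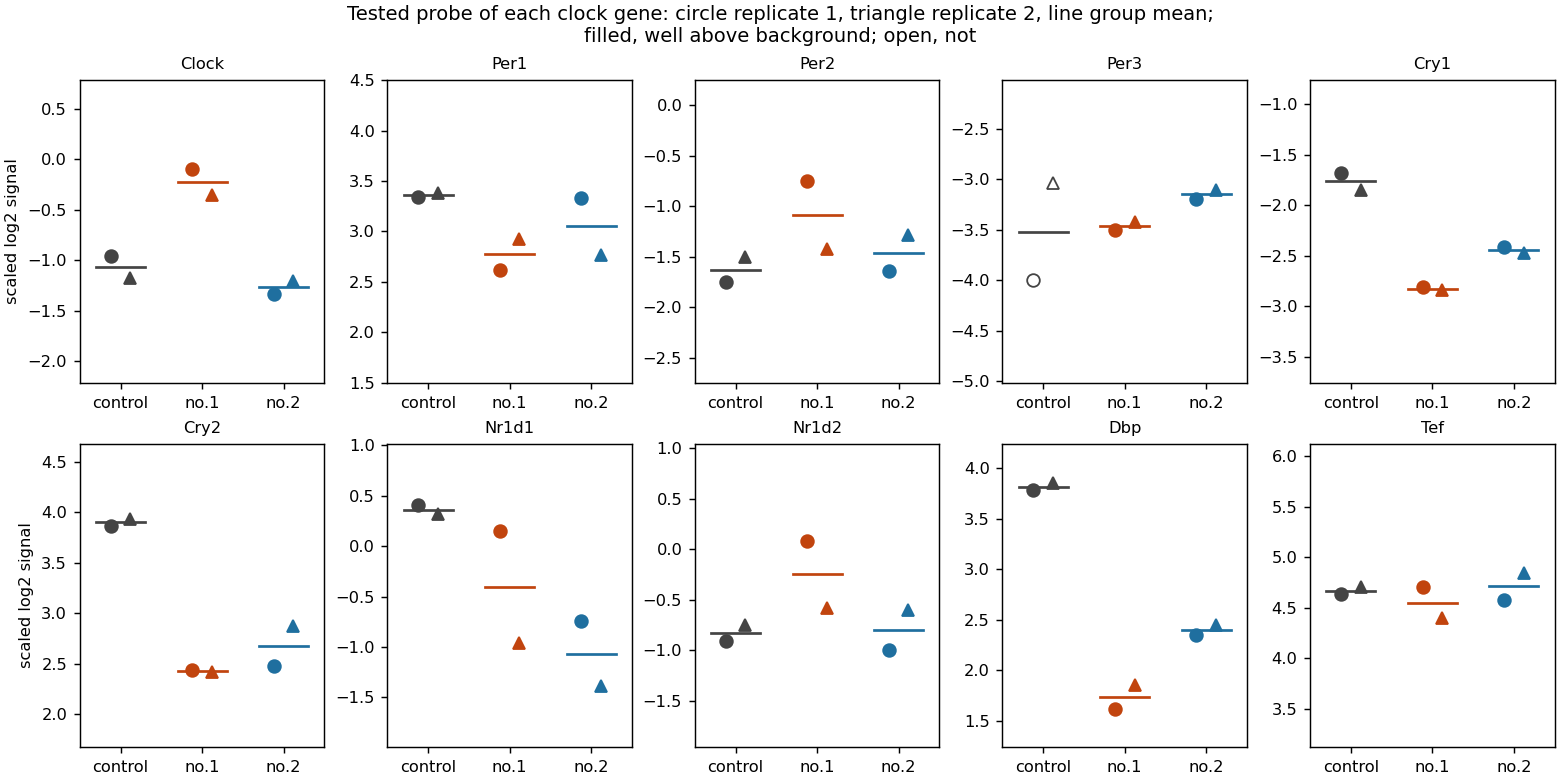
Scaled log2 signal (y axis, log2 units relative to the array's 75th percentile) of the tested probe of each clock gene in control, no.1 and no.2, with 1 point per array, a line at the group mean, and open symbols where the probe was not well above background. Dbp, Cry1 and Cry2 stand lower on all 4 tamoxifen-treated arrays than on both control arrays, and Per3 is open on both control arrays.

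**Figure D2:**
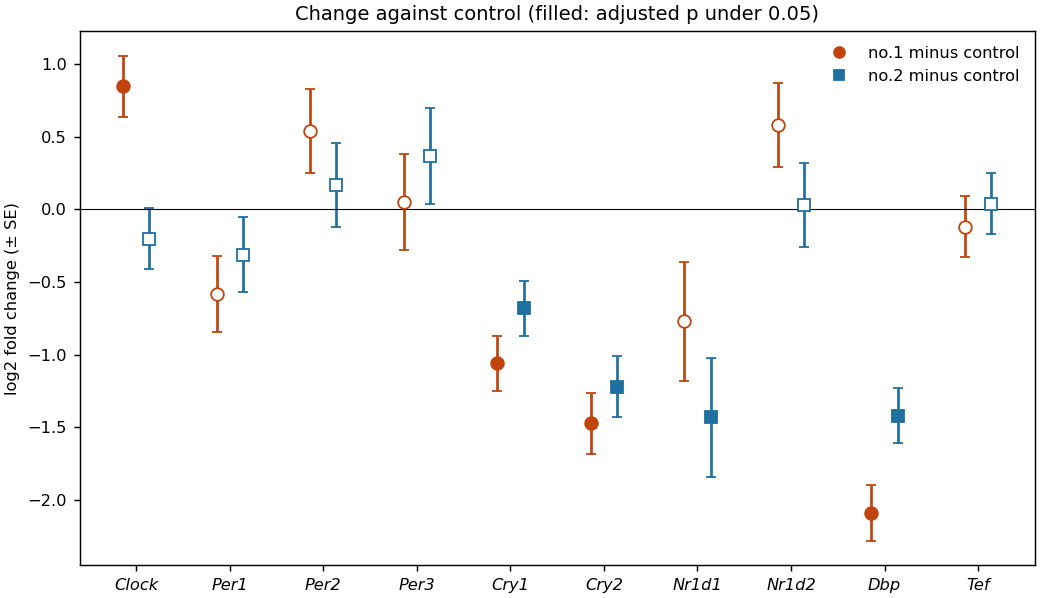
Log2 fold change against control with its SE (y axis) for each clock gene in no.1 (circles) and no.2 (squares), filled where the adjusted p was under 0.05. Dbp has the lowest value in no.1 (-2.09), and Clock is the only filled point above 0 (0.85).

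Clock encodes the DNA-binding partner of BMAL1. Its tested probe read a processed signal of 17.5 and 14.9 in control, 89.7 and 66.7 in no.1, with 21.9 and 24.5 in no.2. After scaling these became -0.96 and -1.18 in control, -0.10 and -0.35 in no.1, with -1.33 and -1.21 in no.2. Both no.1 arrays thus lay above all others, and both no.2 arrays just below both control arrays. Clock rose 1.80-fold in no.1 (log2 fold change of 0.85, SE 0.21, adjusted p = 0.0190, limma), in all 4 pairs of arrays. In no.2 the log2 fold change was -0.20 (SE 0.21, adjusted p = 0.479, limma). The call in no.1 did not hold with normexp background correction (0.20, adjusted p = 0.0624), with the control arrays averaged (adjusted p = 0.103), nor without control replicate 1 (0.0755), control replicate 2 (0.138) or no.1 replicate 1 (0.0763). A second Clock probe stood at 0.36 in no.1 (SE 0.33, adjusted p = 0.402 over all probes) and at -0.75 in no.2 (SE 0.33, adjusted p = 0.137), and the remaining one was not well above background on any array. With the mean of these 3 probes the no.1 value was 0.042 (adjusted p = 0.896).

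None of the 3 Per genes passed the threshold in either comparison with the arrays scaled to their 75th percentile. Under other processing Per2 passed as higher in no.1 when scaled to the median probe (0.97, adjusted p = 0.0473, limma), Per3 passed as lower in no.1 with normexp background correction (-0.57, adjusted p = 0.00235, limma), and all 3 passed as higher in both comparisons relative to the spike-ins. Per1, the member most quickly induced by serum and hormones, read 345 and 351 in control, 591 and 650 in no.1, with 555 and 387 in no.2. Its scaled levels were 3.34 and 3.38 in control, 2.62 and 2.93 in no.1, with 3.33 and 2.77 in no.2. All 4 treated arrays lay below both control arrays, the first no.2 array only just. The log2 fold change was -0.58 in no.1 (95% interval -1.21 to 0.051) and -0.31 in no.2 (-0.94 to 0.32). Per2, whose protein binds the CRY proteins in the repressing complex, read 10.1 and 11.9 in control, 57.0 and 31.7 in no.1, with 17.7 and 23.4 in no.2. Its scaled levels were -1.75 and -1.5 in control, -0.75 and -1.42 in no.1, with -1.64 and -1.28 in no.2. The first no.1 array stood apart, and the no.2 arrays overlapped with control. The log2 fold change of Per2 was 0.54 in no.1 (95% interval -0.17 to 1.25) and 0.17 in no.2 (-0.54 to 0.88). A second Per2 probe was well above background on the first no.1 array only and was not tested.

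Per3 was at the edge of detection. Its tested probe read 2.13 and 4.13 on the control arrays, where it was not well above background, and 8.47 and 7.94 in no.1 and 6.05 and 6.61 in no.2, where it was. The scaled control values, -4.0 and -3.03, enclosed those of no.1 (-3.50 and -3.42) and no.2 (-3.19 and -3.10). The treated values thus lay within the spread of 2 control values that were not above background. The log2 fold change was 0.053 in no.1 (limma, adjusted p = 0.903) and 0.37 in no.2 (limma, adjusted p = 0.422), and no bound above 1 could be given. The other Per3 probe was above background on no array.

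Cry2, which encodes one of the cryptochrome repressors, fell in both groups. Its single probe was bright on every array, at 497 and 515 in control, 521 and 456 in no.1, with 307 and 416 in no.2. After scaling it stood at 3.86 and 3.93 in control, 2.44 and 2.42 in no.1, with 2.48 and 2.87 in no.2, and neither treated group overlapped with control. In no.1 it was down 2.76-fold (log2 fold change of -1.47, SE 0.21, adjusted p = 0.00484, limma), and in no.2 it was down 2.33-fold (-1.22, SE 0.21, adjusted p = 0.0139, limma). For no.2 this call did not survive averaging of the control arrays (adjusted p = 0.0844) or leaving out control replicate 1 (0.0725) or 2 (0.0871).

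The 2 probes of Cry1, the other cryptochrome gene, went in opposite directions. The probe of higher mean, the one tested, read 10.7 and 9.35 in control, 13.6 and 11.9 in no.1, with 10.4 and 10.2 in no.2. Its scaled levels were -1.68 and -1.85 in control, -2.81 and -2.84 in no.1, with -2.41 and -2.47 in no.2. It fell 2.09-fold in no.1 (log2 fold change of -1.06, SE 0.19, adjusted p = 0.00761, limma) and 1.60-fold in no.2 (-0.68, SE 0.19, adjusted p = 0.0426, limma). The second probe read 0.902 and 1.82 in control, where it was not well above background, against 15.8 and 11 in no.1 and 7.06 and 6.10 in no.2, where it was. Its log2 fold changes were 1.95 in no.1 (SE 0.37, adjusted p = 0.00885 over all probes) and 1.64 in no.2 (SE 0.37, adjusted p = 0.0253). Since its control level is only a limit, it was at least 1.09-fold higher in no.1, and no bound above 1 could be given in no.2. Both probes carry the same accession, and the direction of Cry1 is therefore not settled by these arrays. With the mean of both probes Cry1 was 0.44 in no.1 (limma, adjusted p = 0.153) and 0.48 in no.2 (adjusted p = 0.159). Scaled to the median probe, the tested probe passed in neither comparison, at -0.63 (limma, adjusted p = 0.058) and -0.36 (adjusted p = 0.279). Its no.2 call was also lost with quantile normalization (-0.57, limma, adjusted p = 0.0502). Relative to the spike-ins it was called higher in no.1 (0.90, limma, adjusted p = 0.0244). For no.1 the call of the tested probe did not survive averaging of the control arrays (adjusted p = 0.0558) or leaving out control replicate 1 (0.0646). That in no.2 was lost without any single one of the 6 arrays (adjusted p 0.0533 to 0.251) and with the control arrays averaged (0.210).

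The REV-ERB genes did not move alike. Nr1d1 read 45.3 and 42.1 in control, 107 and 43.7 in no.1, with 32.9 and 21.7 in no.2. Its scaled levels were 0.41 and 0.32 in control, 0.15 and -0.96 in no.1, with -0.74 and -1.39 in no.2. Every treated array lay below both control arrays, and the arrays within no.1 differed by more than those of any other group. Nr1d1 fell 2.69-fold in no.2 (log2 fold change of -1.43, SE 0.41, adjusted p = 0.0474, limma), close to the threshold. In no.1 it stood at -0.77 (SE 0.41, adjusted p = 0.166, limma). For no.2 it did not survive normexp background correction (-0.60, adjusted p = 0.0805), quantile normalization (0.0501), the value table (0.0511), scaling to the median probe (-1.11, 0.0767) or the lack of a filter on dim probes (0.060). Nor did it survive averaging of the control arrays (adjusted p = 0.149) or leaving out control replicate 1 (0.150), control replicate 2 (0.140), no.2 replicate 1 (0.0683) or no.2 replicate 2 (0.192).

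Nr1d2 read 18.1 and 20.0 in control, 101 and 56.9 in no.1, with 27.5 and 37.4 in no.2 on its tested probe. The scaled levels were -0.91 and -0.75 in control, 0.081 and -0.58 in no.1, with -1.0 and -0.60 in no.2, so that no.1 lay above control and no.2 enclosed it. The log2 fold changes of 0.58 in no.1 (95% interval -0.12 to 1.29) and 0.030 in no.2 (-0.68 to 0.74) did not pass, although the no.1 value did when scaled to the median probe (1.01, adjusted p = 0.0392, limma). A second Nr1d2 probe stood at 0.74 (SE 0.27, adjusted p = 0.0642 over all probes) and 0.42 (SE 0.27, adjusted p = 0.274), on the same side.

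Dbp had the largest log2 fold change of the 10 genes in no.1, and both of its probes were called lower in both comparisons. The tested probe read 472 and 488 in control, 295 and 306 in no.1, with 281 and 310 in no.2. It was thus lower on every treated array even before scaling, although those arrays were brighter overall. The spike-in controls, given further on, also read lower on every treated array. Relative to them neither Dbp call held, at -0.12 in no.1 (adjusted p = 0.726, limma) and -0.094 in no.2 (adjusted p = 0.801, limma). The scaled levels were 3.79 and 3.86 in control, 1.62 and 1.85 in no.1, with 2.35 and 2.45 in no.2. The 3 groups did not overlap. Against control, no.1 had 4.25-fold less Dbp signal (log2 fold change of -2.09, SE 0.19, adjusted p = 0.00192, limma), and no.2 had 2.68-fold less (-1.42, SE 0.19, adjusted p = 0.00798, limma). The second probe gave -2.32 (SE 0.22, adjusted p = 0.00194 over all probes) and -1.5 (SE 0.22, adjusted p = 0.00925). The no.1 call held without each single array, and the no.2 call was lost without control replicate 2 (adjusted p = 0.0586) and with the control arrays averaged (0.0582).

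Tef, the PAR bZIP relative of Dbp, did not pass in either comparison. Its tested probe read 850 and 878 in control, 2500 and 1800 in no.1, with 1320 and 1630 in no.2. The rise in raw signal was about that of the arrays as a whole, since the scaled levels were 4.64 and 4.70 in control, 4.70 and 4.40 in no.1, with 4.58 and 4.84 in no.2. Those ranges overlapped in both comparisons. The log2 fold change was -0.12 in no.1 (95% interval -0.64 to 0.40) and 0.041 in no.2 (-0.48 to 0.56). With normexp background correction Tef passed as higher in no.1 (0.54, adjusted p = 0.0329, limma). A second probe lay at 0.11 and 0.29, and a dim further one at -0.76 (adjusted p = 0.0575) and -0.49 (adjusted p = 0.202), by limma over all probes.

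**Figure D3:**
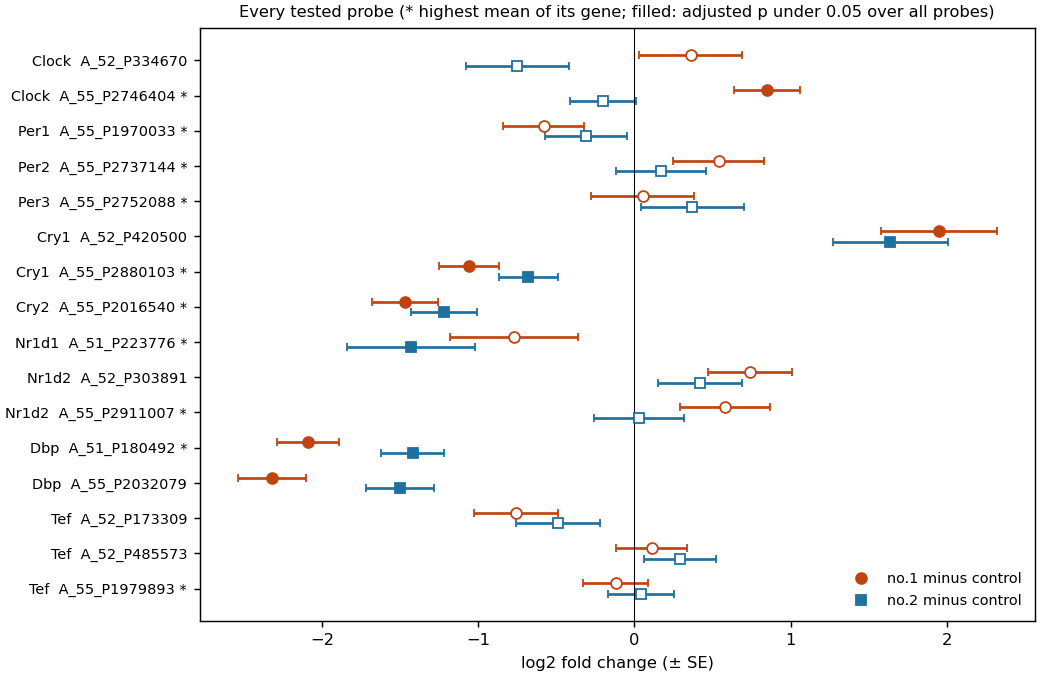
Log2 fold change against control with its SE (x axis) for each of the 16 tested probes of the clock genes, in no.1 (circles) and no.2 (squares), filled where the adjusted p over all probes was under 0.05, with an asterisk on the probe of highest mean of its gene. Both Dbp probes lie between -2.32 and -1.42, while the Cry1 probes lie on opposite sides of 0.

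Counted by probe, 16 of the 19 were tested. In no.1, 2 were called higher and 4 lower, against 46.6% of all tested probes called in either direction, and in no.2 1 was called higher and 5 lower, against 26.7%.

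The comparison named in the series' design is that of no.1 with no.2, the medium with tamoxifen and the one lacking it. Of the 10 genes 0 were called by limma, as were 0% of all 23060 genes, 3825 of which had an unadjusted p under 0.05. Clock had the lowest p of the 10. It was 2.07-fold higher in no.1, in all 4 pairs of arrays (log2 fold change 1.05, 95% interval 0.55 to 1.55, adjusted p = 0.282), and its second probe lay at 1.11 (SE 0.33). Dbp was 1.59-fold lower in no.1, again in all 4 pairs (-0.67, 95% interval -1.14 to -0.19, adjusted p = 0.282), with -0.82 (SE 0.22) on its second probe. These intervals are for single genes and are not adjusted over all genes. For Nr1d1 the difference was 0.66 (-0.34 to 1.66), for Nr1d2 0.55 (-0.15 to 1.26) and for Per2 0.37 (-0.34 to 1.08). Cry1 differed by -0.39 (-0.84 to 0.070) on its tested probe, Per3 by -0.32 (-1.13 to 0.50), Per1 by -0.27 (-0.90 to 0.36), Cry2 by -0.24 (-0.76 to 0.28) and Tef by -0.16 (-0.68 to 0.36).

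How the arrays are scaled decided the direction of several of these genes. The brightness that the main scaling removes was not matched by the spike-in controls, RNAs added in fixed amounts. These had a median signal of 612 and 608 on the control arrays, 437 and 396 in no.1, with 490 and 327 in no.2. Relative to them, 82.3% of all genes were called higher in no.1 and 1.76% lower, with a median log2 fold change of 1.85, and in no.2 66.1% were called higher and 2.19% lower, with a median of 1.23. On that scale 8 clock genes were called higher in no.1 and none lower, and 6 were called higher in no.2 and none lower. In no.1 the other 2 were Dbp and Cry2, at -0.12 (adjusted p = 0.726) and 0.50 (adjusted p = 0.242) in no.1 and at -0.094 (adjusted p = 0.801) and 0.11 (adjusted p = 0.804) in no.2. Nr1d1 stood at 1.20 in no.1 (adjusted p = 0.0249) and at -0.10 in no.2 (adjusted p = 0.827), and Tef at 1.85 and 1.37 (adjusted p = 0.00245 and 0.0137). All of these adjusted p are limma's. Dbp stood lowest among the 10 genes in no.1, below the median of all genes. Both scalings shift all genes of an array alike, so this order is the same on either by construction. Whether RNA per cell, labelling or spike-in amount differed between the samples was not tested.

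**Figure D4:**
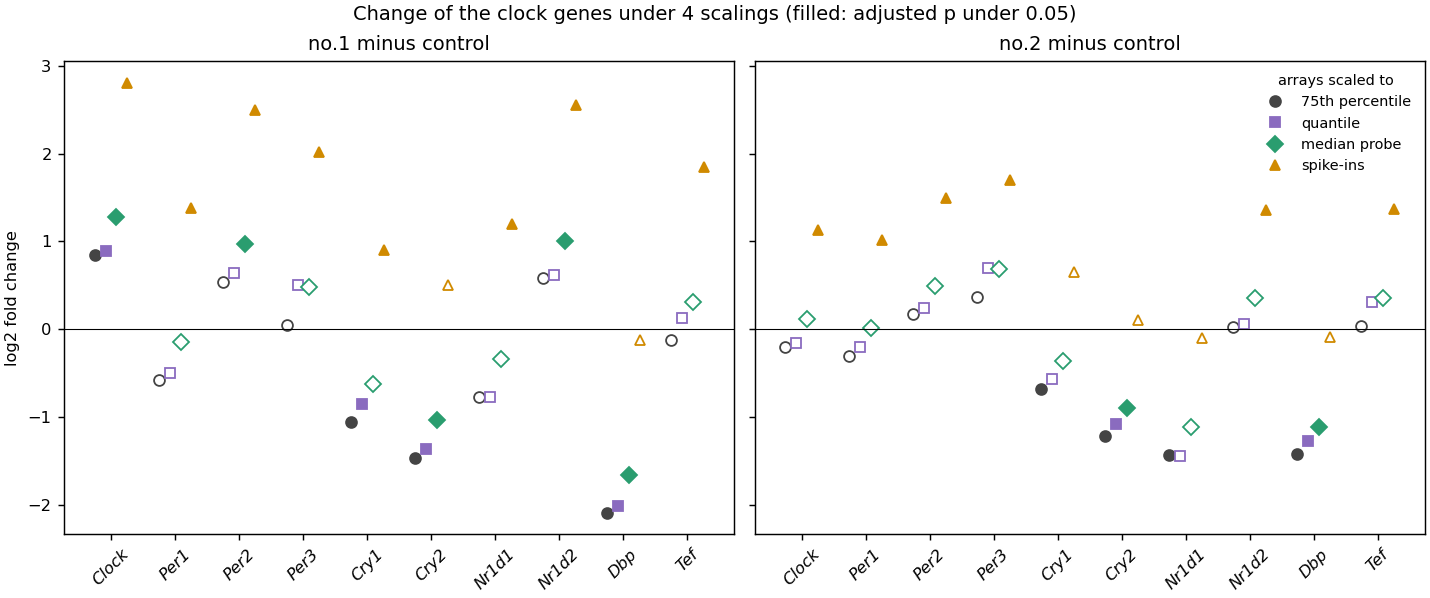
Log2 fold change against control (y axis) of each clock gene under 4 scalings of the arrays, for no.1 (left) and no.2 (right), filled where the adjusted p was under 0.05. Dbp lies at -2.09 in no.1 with the 75th percentile and at -0.12 relative to the spike-ins, where Clock reaches 2.81.

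Differences between 2 genes within an array are the same under any scaling that shifts all log2 values of an array alike, as the percentile, the median probe and the spike-ins do, and quantile normalization does not. Of these, 4 were taken after the values had been seen, as a description with no test. The log2 signal of Dbp minus that of Tef was -0.85 on both control arrays, -3.08 and -2.55 in no.1, and -2.23 and -2.39 in no.2. Dbp thus moved down against Tef by 1.97 in no.1 and 1.46 in no.2 (differences of -1.97 and -1.46), with no overlap between control and either treated group. Nr1d1 minus Nr1d2 was 1.32 and 1.07 in control, 0.070 and -0.38 in no.1, with 0.26 and -0.79 in no.2, again without overlap with control. Cry2 minus Clock went from 4.82 and 5.11 in control to 2.54 and 2.77 in no.1, with 3.81 and 4.09 in no.2, and there no.1 and no.2 did not overlap either. Per1 minus Per2 was 5.09 and 4.88 in control, 3.37 and 4.36 in no.1, with 4.97 and 4.05 in no.2, and the no.2 values overlapped with control. Since the pairs were picked for how they differed, these values support nothing further.

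The arrays within a group also bear on a rhythmic gene set. In the file names the control arrays are marked 0 h, while replicate 1 of each treated group is marked 24 h and replicate 2 48 h, although the labels state 24 h of tamoxifen for all 4. The median difference between the arrays of a group, regardless of sign, was 0.12 over the 10 genes in control, 0.28 in no.1 and 0.31 in no.2, beside 0.12, 0.29 and 0.34 over all genes. The clock genes thus varied within a group about as much as other genes did. Nr1d1 was lower on replicate 2 in both treated groups, with differences of -1.11 in no.1 and -0.64 in no.2. Nr1d2 and Per2 went down in no.1 (-0.66 and -0.67) and up in no.2 (0.40 and 0.36), and Per1 did the reverse (0.31 and -0.57). Dbp was higher on replicate 2 by 0.23 and 0.10, and Cry1 was nearly level (-0.027 and -0.062). Each of these rests on 1 array per value and has no test.

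The rest of the clock machinery was followed through 39 other genes in 4 lists, of which 34 were tested. In no.1, 11 were called higher and 5 lower, with a median log2 fold change of 0.38, and in no.2, 3 higher and 5 lower, with a median of 0.35. These shares are near the 47.8% and 28.3% of all genes called in the same comparisons. Among the activators and the receptors that drive Arntl, 4 of 6 genes were tested. Arntl itself, encoding BMAL1, read 19.6 and 24.7 in control, 85.4 and 80.5 in no.1, with 37.2 and 59.4 in no.2. Its log2 fold changes of 0.50 (SE 0.27, adjusted p = 0.176) and 0.37 (SE 0.27, adjusted p = 0.329) did not pass. Scaled to the median probe, Arntl passed as higher in no.1 (0.93, adjusted p = 0.0427). Relative to the spike-ins it passed as higher in no.1 (2.46, adjusted p = 0.00156) and no.2 (1.7, adjusted p = 0.0123). Arntl2, its paralog, rose in no.1 (1.26, SE 0.21, adjusted p = 0.00658) as well as no.2 (1.19, SE 0.21, adjusted p = 0.0141). Npas2 was not well above background on both arrays of any group and was not tested, and Rorb had no probe here. All of these adjusted p are limma's.

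Of 7 further repressors and D-box factors, 5 were tested. Timeless, whose product also works at replication forks, rose in no.1 (1.78, SE 0.21, adjusted p = 0.00316, limma) and in no.2 (1.63, SE 0.21, adjusted p = 0.00668, limma), and the other 4 did not pass. Ciart, a repressor of CLOCK and BMAL1, stood at -0.52 (adjusted p = 0.126) and -0.77 (adjusted p = 0.0617), and Nfil3, the antagonist of DBP at D-boxes, at 0.22 (adjusted p = 0.541) and 0.32 (adjusted p = 0.406), all by limma. Hlf, the remaining PAR bZIP gene, was not tested. Of 14 tested kinase, ubiquitin ligase and deubiquitinase genes, 6 rose and 1 fell in no.1 (47.8% of all genes were called), and none rose and 1 fell in no.2 (28.3% of all genes). The gene that fell was Usp2 in both cases, encoding a deubiquitinase that acts on clock proteins. It read 62.3 and 69.4 in control, 26.7 and 40.7 in no.1, with 39.4 and 17 in no.2, with log2 fold changes of -2.41 (SE 0.46, adjusted p = 0.00964, limma) and -2.07 (SE 0.46, adjusted p = 0.0250, limma). Relative to the spike-ins these were -0.45 (adjusted p = 0.282) and -0.74 (adjusted p = 0.107). Csnk1e, encoding casein kinase 1 epsilon, which phosphorylates PER proteins, rose in no.1 (0.68, SE 0.20, adjusted p = 0.0356, limma).

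Among 11 genes taken as clock outputs, 3 rose and 3 fell in no.1 (47.8% of all genes were called), and 1 rose and 3 fell in no.2 (28.3% of all genes). The 3 that fell in no.1 are not described singly here, while Wee1 and Noct, which rose, are. Wee1, a mitotic inhibitor kinase with E-boxes in its promoter, read 16.1 and 20.8 in control, 323 and 176 in no.1, with 85.3 and 95.5 in no.2. It rose by 2.29 in no.1 (SE 0.29, adjusted p = 0.00373, limma) and 1.58 in no.2 (SE 0.29, adjusted p = 0.0163, limma). Noct, encoding nocturnin, rose in no.1 (1.65, SE 0.29, adjusted p = 0.00729, limma), and Klf9 fell in no.2 (-1.24, SE 0.29, adjusted p = 0.0287, limma), though not relative to the spike-ins (0.088, adjusted p = 0.795). Proliferation genes moved with Wee1 and Timeless. All 5 on the list rose in both comparisons, with medians of 3.14 and 2.05, among them Mki67, which went from 58.0 and 50.5 in control to 2230 and 1390 in no.1 and 491 and 277 in no.2. Their part in the clock gene results was not tested.

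The signals that reset the fibroblast clock were followed through their own targets. Of 6 genes of the glucocorticoid response, Fkbp5 rose in no.1 (2.11, SE 0.23, adjusted p = 0.00277, limma) and in no.2 (1.89, SE 0.23, adjusted p = 0.00608, limma), while Tsc22d3 fell in no.1 (-1.82, SE 0.35, adjusted p = 0.00953, limma). Relative to the spike-ins Fkbp5 stood at 4.08 in no.1 (adjusted p = 0.000227) and Tsc22d3 at 0.15 (adjusted p = 0.794), by limma, so the fall of Tsc22d3 holds only relative to the other genes. Zbtb16 was called lower in no.2 but was above background on neither group's arrays, and no change is read from it. Of 11 immediate early genes and their regulators, 3 rose in no.1 (Fos, Egr1 and Creb1) and 1 in no.2 (Fos), and none fell. Over all genes, 47.8% in no.1 and 28.3% in no.2 were called in either direction, and 21.4% and 12.1% were called higher. Fos stood at 1.79 (SE 0.30, adjusted p = 0.00663, limma) and 1.14 (SE 0.30, adjusted p = 0.0368, limma). Per1, which the same signals induce, did not pass, at -0.58 in no.1 (adjusted p = 0.109, limma) and -0.31 in no.2 (adjusted p = 0.386, limma). Relative to the spike-ins Per1 was higher, by 1.38 in no.1 and 1.02 in no.2. Whether such signals differed between the groups was not tested. Over all 56 tested genes of these 6 lists and the proliferation list, 20 were called higher and 6 lower in no.1, and 10 higher and 6 lower in no.2, again near the 47.8% and 28.3% of all genes. Relative to the spike-ins 50 were called higher and none lower in no.1, and 43 higher and none lower in no.2, where 82.3% and 66.1% of all genes were called higher.

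The genes whose profile over the 6 arrays was nearest to Dbp or Per2 were found among 12050 named genes above background on all arrays. The 10 clock genes were left out of that search. The measure was the Euclidean distance of mean-centred scaled log2 levels. For Dbp these were Lamb2 (distance 0.131), Rex2 (0.163), Abhd16a (0.173), Chadl (0.176) and Hspa1a (0.192). For Per2 they were Pdik1l (0.0851), Ctps (0.186), Epdr1 (0.192), Tmem43 (0.206) and Skp1 (0.214). None of these 10 neighbours was on the lists of other clock-related genes, and the 10 clock genes themselves could not appear. With 6 arrays in 3 groups the distance mostly reads the group means, and the likeness is a description only.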

How the data were processed

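RNA of 6 samples was measured on 6 Agilent 1-colour arrays. The deposited intensity values were made with Feature Extraction 12.1.1.1 per the file headers. Another version, 9.5.1.1, stands in the submitters' processing notes. Per the file headers and column names, the processed intensity is background-subtracted and not normalized between arrays. The value table of the series, whose making the sources used here do not describe, held intensity values that matched quantile-normalized processed signals within 1% for 100% of probes on every array. No column was without a sample (0).

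Spots of a probe were averaged on the log2 scale, leaving out outlier-flagged spots where others remained, and scaled to the array's 75th percentile over 56605 probes. Probe accessions were matched, without versions, to RefSeq symbols (GRCm38.p6, names only, since the file headers name mm9), and 58.3% of probes were named. The probe of highest mean stood for its gene. A gene had to be well above background in both samples of 1 group or more, and was then tested with limma 3.58.1 (lmFit and eBayes, R 4.3.3) on all 6 arrays with a mean per group (3 residual degrees of freedom). A Benjamini-Hochberg adjusted p under 0.05 made a call. Intervals are 95% intervals of that fit. For a bound, a dim probe's own signal was replaced, where lower, by the least signal that was well above background on that array, and the bright group's mean was set against the mean of these. The procedure was first tested on simulated data holding known changes. No probe was saturated (0 spots). The number of arrays limits the precision.

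The named genes are the 10 clock genes with every probe, Plod2, and the 5 nearest profiles of Dbp and Per2. From each pathway list they were taken among up to 4 called genes of lowest p per comparison, or the 2 of lowest p where none was called. Not all of those are named. Arntl, Nfil3, Csnk1e, Npas2, Rorb and Hlf fall outside that rule and were named for their role after their values were seen. Ciart falls inside it only between no.1 and no.2, and its values against control were given for its role in the same way. The clock genes and lists were chosen with earlier results of these data known. Alternatives changed the background correction (normexp, offset 50, on median spot signals because mean signals are not in the files used here), scaling, filter, probe choice, samples and replicate block. The labels tie same-numbered samples to no shared source, but the file names mark replicate 1 of both treated groups 24 h and replicate 2 48 h. The fit has no replicate block. Deviations of same-numbered samples correlated at -0.035 (control and no.1), -0.017 (control and no.2) and 0.17 (no.1 and no.2). Both control arrays are marked 0 h in the file names, so only the last value bears on a shared time. It does not settle whether a block is needed. The closing section gives the blocked values. One gene of the pathway lists is not reported here.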

Additional observations from a re-analysis of the deposited data

How the results depend on the processing

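Beside the limits given with each gene, 2 arrays a group leave 3 residual degrees of freedom, and the dimmest probes are limited by their signal over background. Of the 10 clock genes, the number called in no.1 against control was 8 relative to the spike-ins, 2 with the mean of all probes and 2 with the control arrays averaged, and 2 to 4 without single arrays. In no.2 it was 6, all higher, relative to the spike-ins, against 4, all lower, as reported, and it was 2 with quantile normalization, 2 scaled to the median probe and 0 with the control arrays averaged, and 0 to 3 without single arrays. Between no.1 and no.2 it was 2 with no filter on dim probes (Clock, adjusted p = 0.0422, and Dbp, adjusted p = 0.0488, limma). In that setting 8296 of all 45616 genes and unnamed transcripts were called as well, so these 2 calls are not particular to the clock genes. Over all genes, the count called was 19382 in no.1 and 15739 in no.2 relative to the spike-ins, 24873, 16476 and, between no.1 and no.2, 8296 with no filter, and 4846 and 1246 with the control arrays averaged. Without single arrays it was 4999 to 12054, 1298 to 6367 and 0 to 117.

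With the replicate block, 4 clock genes were called in no.1 and 3 in no.2, where Cry1 was lost (-0.68, adjusted p = 0.0701, limma), and no other call changed. The cause of the following reversals was not tested. Log2 fold changes against control that changed sign with normexp background correction were, in no.1, Per1 0.068, Per2 -0.065, Per3 -0.57 and Tef 0.54, and in no.2, Per1 0.10, Per2 -0.070, Per3 -0.22 and Nr1d2 -0.11, and Tef between no.1 and no.2 was 0.14. Tef in no.1 was 0.13 with quantile normalization and with the value table, and 0.31 scaled to the median probe, where Clock in no.2 was 0.12 and Per1 0.0083. Relative to the spike-ins, no.1 gave Per1 1.38, Cry1 0.90, Cry2 0.50, Nr1d1 1.20 and Tef 1.85, no.2 gave Clock 1.13, Per1 1.02, Cry1 0.65 and Cry2 0.11, and no.1 against no.2 gave Per1 0.36, Per3 0.32, Cry1 0.25, Cry2 0.39 and Tef 0.47. With the mean of all probes, no.1 gave Per2 -0.10, Per3 -0.65 and Cry1 0.44, and no.2 gave Per2 -0.55, Per3 -0.11, Cry1 0.48 and Tef -0.052. Without control replicate 1, Per3 was -0.43 in no.1 and -0.12 in no.2, and Nr1d2 was -0.051 in no.2. Without no.1 replicate 2, Tef in no.1 was 0.030. Without no.2 replicate 1, Per1 between no.1 and no.2 was 0.013, and without no.2 replicate 2, Per2, Nr1d2 and Tef in no.2 were -0.010, -0.17 and -0.087. Over all single arrays left out, Tef in no.1 ranged from -0.27 to 0.030, and in no.2 Per2 ranged from -0.010 to 0.35, Per3 from -0.12 to 0.86, Nr1d2 from -0.17 to 0.23 and Tef from -0.087 to 0.17.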
